A study of Mus musculus with 32 samples.

Results

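The 46 genes described here make up the hepatic machinery that handles choline, methionine and 1-carbon units, and they were taken by symbol from the 41585 entries of both raw count tables. They cover the methionine cycle, remethylation of homocysteine, transsulfuration and taurine synthesis, the folate cycle, choline oxidation, phospholipid synthesis, choline transporter-like proteins, other methyltransferases, and polyamines with methionine salvage. In each sex 45 of the 46 had enough counts to be tested. The exception was Chkb, a choline kinase, which held 0 to 2 counts in every library. Its 1707 exonic bases overlap other annotated genes by 1694 bases, a sum over genes that can count a base more than once. Among those genes, Gm44502 contains Chkb and was listed at 0 counts in all 32 libraries.

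Total liver RNA was sequenced from wildtype (WT) mice and from Cyp2b-null mice, which lack the cytochrome P450 genes Cyp2b9, Cyp2b10 and Cyp2b13. Young adult females and males of both genotypes ate either a normal chow diet (ND) or a purified high fat diet made with amino acids and lacking choline (CDAHFD), with 62% fat and 0.1% methionine for 8 weeks, a diet that produces steatohepatitis. This gave 8 groups of 4 libraries: ND-fed and CDAHFD-fed WT females, ND-fed and CDAHFD-fed Cyp2b-null females, and the same 4 groups of males, all labelled C57BL/6. The nulls came from a CRISPR/Cas9 line on the same strain background, whereas the WT mice were purchased, and the purified diet differs from chow in fat and protein source as well as in choline and methionine.

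In the methionine cycle, methionine adenosyltransferase makes S-adenosylmethionine, the universal methyl donor, methyltransferases use it, and the product is hydrolyzed to homocysteine. Homocysteine is then either remethylated to methionine, with a methyl group from betaine (an oxidation product of choline) or from folate, or passed through cystathionine to cysteine and taurine. The liver holds most of this machinery, and it also makes phosphatidylcholine both from dietary choline and by methylation of phosphatidylethanolamine; diets short of choline and methionine are a standard way to produce fatty liver in rodents.

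RefSeq promoters (GRCm38.p6) were found for 39 of the 46 members. Mat1a, Cth, Cdo1, Nnmt, Aldh7a1, Srm and Pcyt2 had none, so the motif counts below do not cover them. Shown, because their RNA fell strongly with CDAHFD, are Gnmt, Ahcy and Csad, each by the 100 bases nearest the transcription start that lay outside every GENCODE exon and outside the RefSeq span of the gene. Each is written 5′ to 3′ on the strand of the gene, and capitals mark CG dinucleotides, the sites that DNA methylation can occupy.
Gnmt, fell (chr17:46729212-46729311, minus strand): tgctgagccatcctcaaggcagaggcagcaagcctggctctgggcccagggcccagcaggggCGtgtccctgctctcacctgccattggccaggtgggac
Ahcy, fell (chr2:155074498-155074597, minus strand): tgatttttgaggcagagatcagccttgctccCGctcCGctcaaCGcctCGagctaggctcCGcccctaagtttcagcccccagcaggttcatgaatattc
Csad, fell (chr15:102205087-102205186, minus strand): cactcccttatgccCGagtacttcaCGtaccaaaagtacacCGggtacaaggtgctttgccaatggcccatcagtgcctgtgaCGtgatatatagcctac
These windows held 1, 5 and 4 CG dinucleotides, and the full 250 bases upstream held 6, 9 and 5, against a median of 6 over the 32851 promoters of the table. The letters TGATGNAA, the core of the amino acid response element, occurred on either strand in 0 of the 39 member promoters and in 3.91% of the 27025 genes with a promoter. The E-box CACGTG, a palindrome, occurred in 3 of the 39 (Cbs, Sms and Tyms) and in 6.86% of all genes; the motifs do not overlap in their letters, and these matches are descriptions of the sequence only.

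The libraries held 2906411 to 10166959 counts, so a floor of 3 counts equals 0.295 to 1.03 CPM (a count scaled to a common library total). All values below are CPM after TMM scaling within a sex unless stated, listed for replicates 1 to 4. Cyp2b9 stood at 534 to 615 CPM in ND-fed WT females and at 0.844 to 1.95 CPM in ND-fed Cyp2b-null females. ND-fed males were told apart by Cyp2b10 (5.97 to 14.5 CPM in WT, 0.207 to 0.984 CPM in nulls) and CDAHFD-fed males by Cyp2b9 (13.6 to 67.9 and 0.404 to 0.615 CPM), since Cyp2b13 stayed at or below 1.23 CPM in every male library. CDAHFD-fed Cyp2b-null female replicate 3 stood apart, with a mean within-group correlation of 0.937 against 0.964 or more in the other 31 libraries; results that turn on it are given with and without it. All 10 hepatocyte markers were abundant, and 7, 5, 8 and 7 of them fell on CDAHFD in WT females, Cyp2b-null females, WT males and Cyp2b-null males, while 0, 0, 1 and 0 rose. The summed hepatocyte markers moved from 160460 to 232508 CPM in ND-fed WT females to 119087 to 135999 CPM on CDAHFD, and in WT males from 136224 to 153284 CPM to 83262 to 136021 CPM. In the same order of groups, 6, 6, 6 and 6 of 7 tested macrophage markers, 6, 7, 6 and 7 of 8 stellate cell and fibroblast markers, 2, 3, 2 and 2 of 5 tested cholangiocyte markers and 5, 5, 5 and 6 of 6 proliferation markers rose. The summed macrophage markers went from 338 to 493 CPM in ND-fed WT females to 923 to 1257 CPM on CDAHFD, although Trem2 was listed at 0 counts in every library. Endothelial markers were mixed, with 0, 0, 1 and 3 of 6 higher and 2, 3, 1 and 0 lower, and 1, 2, 1 and 1 of the few testable leukocyte markers rose. Over all genes tested, 13.9%, 16.9%, 18% and 20.3% rose and 10.2%, 13.9%, 15% and 17.1% fell in the same order of groups. In whole liver, fewer hepatocytes and less RNA per hepatocyte cannot be told apart, and the part of cell composition in the diet effects below was not tested.

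The first question was what the diet did to the members in each genotype and sex. In WT females, 3 members rose on CDAHFD, where 13.9% of all genes tested rose, and 19 fell, where 10.2% of all genes fell. In Cyp2b-null females 3 rose (16.9% of all genes) and 16 fell (13.9%), in WT males 5 rose (18% of all genes) and 19 fell (15%), and in Cyp2b-null males 5 rose (20.3%) and 21 fell (17.1%), each of 45 tested. The median log2 change of the members was -0.37, -0.28, -0.32 and -0.33, whereas the median over all genes tested lay at 0.00, 0.03, -0.02 and -0.01. Mat2a and Mthfd1l rose in all 4 comparisons, as did 9.08% of the 12978 genes tested in both sexes. In all 4, 12 of the 45 members fell, namely Gnmt, Ahcy, Cbs, Cth, Cdo1, Csad, Mthfd1, Shmt1, Dmgdh, Cept1, Chpt1 and Slc44a1, against 4.48% of all genes. A further 14 passed the test in none: Mat2b, Bhmt, Mtr, Shmt2, Tyms, Pemt, Chka, Lpcat3, Slc44a3, Nnmt, Amd1, Srm, Odc1 and Mtap. The members were chosen with earlier results of these data known, so the shares beside all genes describe them and are no test of the set. Scaling by library size alone, with which the median of all genes lay at 0.32, 0.28, 0.37 and 0.36, turned the higher and lower counts into 9 and 9, 9 and 6, 10 and 11, and 8 and 13. Without CDAHFD-fed Cyp2b-null female replicate 4, 1 member rose in Cyp2b-null females in place of 3.

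**Figure D1:**
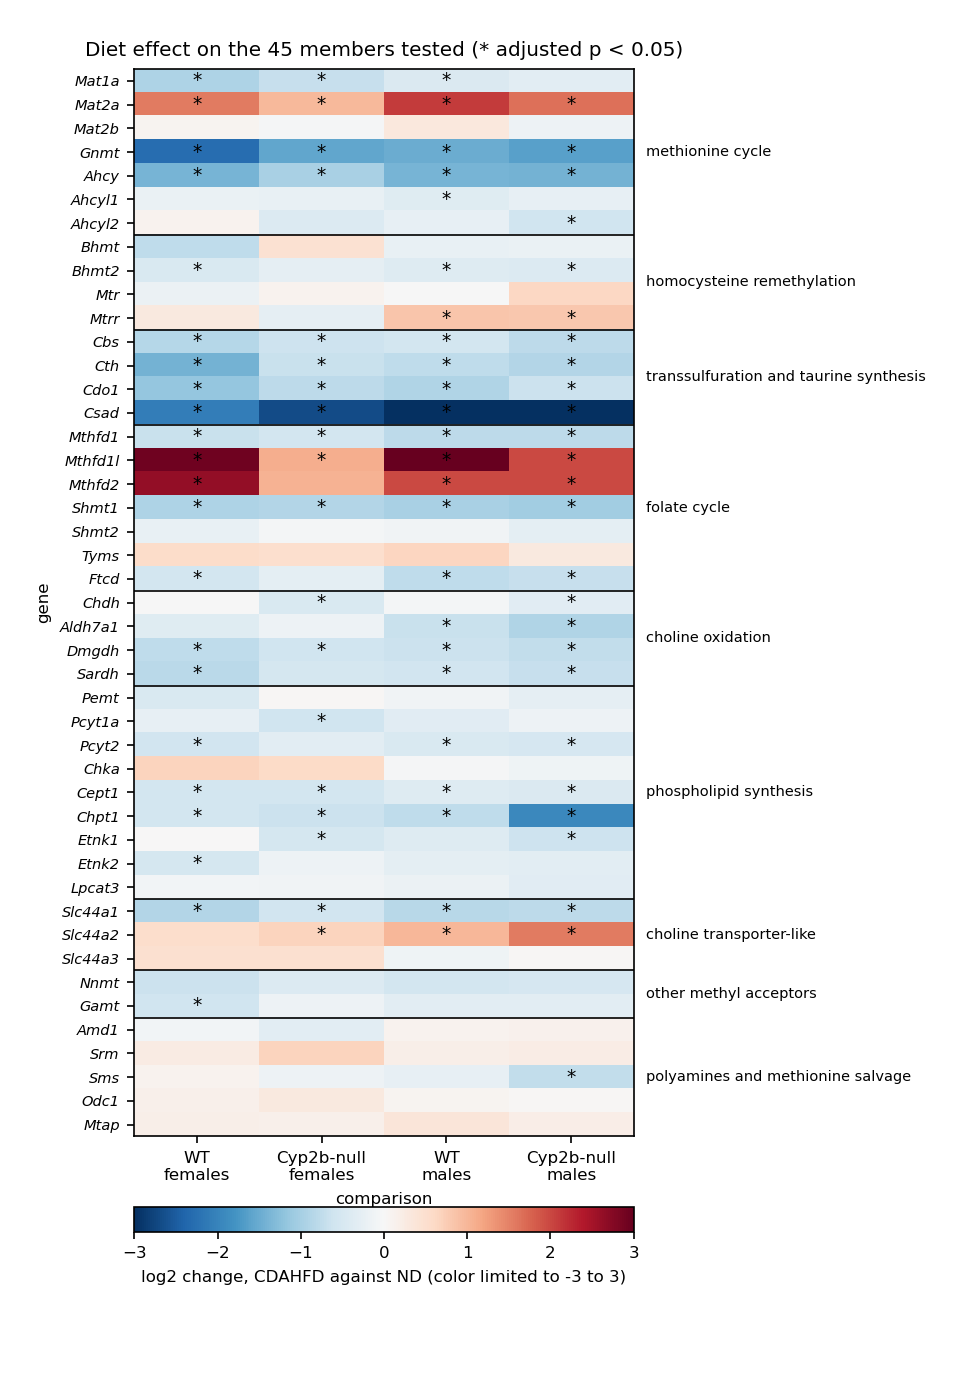
Log2 change on CDAHFD against ND (color, limited to the range from -3 to 3) for the 45 members tested, in rows grouped by role, and 4 comparisons in columns; an asterisk marks an edgeR adjusted p under 0.05. Mat2a and Mthfd1l are red and Gnmt, Ahcy and Csad blue in all 4 columns, and of the polyamine genes at the bottom only Sms in Cyp2b-null males carries an asterisk; the fitted values of Mthfd1l in WT mice depend on the prior count.

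Of the 7 methionine cycle genes 1 rose and 3 or 4 fell in each comparison, and the methionine adenosyltransferase genes moved in opposite directions. Mat1a, which encodes the liver form (chromosome 14, 41105012 to 41124428, GRCm38), read 3126, 4299, 4509.7 and 4793 CPM in ND-fed WT females and 2353, 2406, 2041 and 2032 CPM in CDAHFD-fed WT females. In Cyp2b-null females it read 4421, 2977, 4086 and 2674 CPM on ND and 2414, 2244, 1992 and 2152 CPM on CDAHFD. No CDAHFD-fed female of either genotype reached the lowest ND-fed female of her genotype. Male Mat1a was 3216, 3015, 2844 and 3789 CPM in ND-fed WT, 2444, 2588, 1882 and 2679 CPM in CDAHFD-fed WT, 3033, 2417, 2779.8 and 2591 CPM in ND-fed Cyp2b-null and 2585, 1711, 1965 and 2463 CPM in CDAHFD-fed Cyp2b-null livers. The WT males did not overlap, but the Cyp2b-null males did. The log2 change (± SE here and below) was -0.92 ± 0.16 in WT females (adjusted p = 0.000261), -0.69 ± 0.16 in Cyp2b-null females (adjusted p = 0.00318), -0.42 ± 0.16 in WT males (adjusted p = 0.0415) and -0.31 ± 0.16 in Cyp2b-null males (adjusted p = 0.126). The call in WT males was lost on leaving out any of 5 of the 8 WT male libraries, with adjusted p up to 0.145.

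Mat2a (chromosome 6, 72432796 to 72439556), the form that most other tissues and dividing cells use, read 14.8, 17.9, 22.7 and 15.1 CPM in ND-fed WT females and 56.7, 43.2, 46.3 and 57 CPM in CDAHFD-fed WT females. In Cyp2b-null females it was 18.5, 27.4, 16.4 and 21.6 CPM on ND and 38.7, 46.7, 25.6 and 55.7 CPM on CDAHFD; replicate 3, the library that stood apart, was the lowest on CDAHFD and lay within the ND range. WT males held 13.4, 11.7, 12.5 and 12.7 CPM on ND and 59, 49.5, 54.8 and 50.3 CPM on CDAHFD, and Cyp2b-null males 17.3, 11, 15.7 and 22 CPM on ND and 47.5, 60.5, 47.3 and 53.9 CPM on CDAHFD. Except in Cyp2b-null females, every CDAHFD-fed liver was above every ND-fed liver of its genotype and sex. The log2 change was 1.55 ± 0.22 in WT females (adjusted p = 1.99e-05), 0.97 ± 0.21 in Cyp2b-null females (adjusted p = 0.00148), 2.09 ± 0.16 in WT males (adjusted p = 4.80e-09) and 1.66 ± 0.15 in Cyp2b-null males (adjusted p = 4.70e-08). Without replicate 3 the change in Cyp2b-null females was 1.15 ± 0.18 (edgeR adjusted p = 9.67e-05). Counting both genes within a library, Mat1a outnumbered Mat2a by a median of 226 to 1 in ND-fed WT females and 42.8 to 1 on CDAHFD, and by 249 to 1 and 46.8 to 1 in WT males. The highest CDAHFD ratio in any group, 77.8, was below the lowest ND ratio, 109. Mat2b, the regulatory subunit, passed no diet test (adjusted p of 0.0547 to 0.874).

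Gnmt and Ahcy, which consume S-adenosylmethionine and its product, fell in all 4 comparisons. Gnmt (chromosome 17, 46725664 to 46729211), a glycine methyltransferase that buffers the S-adenosylmethionine pool and the most abundant member per kilobase of exon in ND-fed WT livers of both sexes, read 2716, 1689, 2929 and 2823 CPM in ND-fed WT females and 501, 671, 609.8 and 295 CPM on CDAHFD. Cyp2b-null females held 2663, 1746, 2670.2 and 1277 CPM on ND and 757, 682, 903 and 487 CPM on CDAHFD. Males held 2239, 2036, 2336 and 2414 CPM (ND-fed WT), 1101, 749, 711 and 679.7 CPM (CDAHFD-fed WT), 1871, 2039, 2186 and 2181 CPM (ND-fed Cyp2b-null) and 773, 699, 536 and 663 CPM (CDAHFD-fed Cyp2b-null). ND-fed and CDAHFD-fed livers did not overlap in any genotype or sex, and the ND-fed females spread more widely than the males. The diet changed Gnmt by log2 -2.29 ± 0.27 in WT females (adjusted p = 2.59e-06), -1.56 ± 0.26 in Cyp2b-null females (adjusted p = 0.000136), -1.48 ± 0.15 in WT males (adjusted p = 2.87e-07) and -1.63 ± 0.16 in Cyp2b-null males (adjusted p = 6.29e-08).

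Ahcy (chromosome 2, 155059310 to 155074497), S-adenosylhomocysteine hydrolase, read 473, 441, 600.3 and 598 CPM in ND-fed WT females against 202, 260.0, 168 and 180.3 CPM on CDAHFD, and 549.9, 423, 519.8 and 354 against 241, 218, 281 and 205 CPM in Cyp2b-null females. In males the values were 556, 518, 487 and 527 against 249, 170.3, 184 and 189 CPM in WT and 515, 465, 566 and 486 against 243, 203, 148 and 172 CPM in Cyp2b-null livers. Again no ND-fed and CDAHFD-fed libraries overlapped within a genotype and sex. Fitted log2 changes of Ahcy were -1.38 ± 0.17 in WT females (adjusted p = 4.70e-06), -0.97 ± 0.17 in Cyp2b-null females (adjusted p = 0.000208), -1.40 ± 0.15 in WT males (adjusted p = 2.80e-07) and -1.41 ± 0.15 in Cyp2b-null males (adjusted p = 1.92e-07). Ahcy shares long runs of transcript sequence with the pseudogenes Gm4737 and Gm9826, so reads could be split between them. Of its relatives, Ahcyl1 fell in WT males (-0.35 ± 0.12, adjusted p = 0.0291, up to 0.100 without 1 library) and Ahcyl2 in Cyp2b-null males (-0.60 ± 0.18, adjusted p = 0.0104), each passing 1 of 4 diet tests.

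Of the 4 remethylation genes, 1, 0, 1 and 1 fell and 0, 0, 1 and 1 rose in WT females, Cyp2b-null females, WT males and Cyp2b-null males. Bhmt, betaine-homocysteine methyltransferase, was among the most variable members: it read 857, 1019.8, 2968 and 2873 CPM in ND-fed WT females, 831, 1358, 1316 and 1051 CPM in CDAHFD-fed WT females, 1305, 489, 962 and 805 CPM in ND-fed and 1532, 1378, 1185 and 771 CPM in CDAHFD-fed Cyp2b-null females. Male Bhmt was 1898, 1793, 1568 and 1730.2 CPM in ND-fed WT, 2363, 1677, 1146 and 785 CPM in CDAHFD-fed WT, 929, 1577, 2161 and 1421 CPM in ND-fed Cyp2b-null and 1372, 1726, 1087 and 1099 CPM in CDAHFD-fed Cyp2b-null livers. The ranges overlapped in every diet comparison and no test passed (adjusted p of 0.118 to 0.584); Bhmt also shares sequence with Gm5096 and Bhmt-ps1. Bhmt2, its neighbor, which uses S-methylmethionine as donor, read 198, 173, 249.8 and 245 CPM in ND-fed and 141, 152, 172 and 163 CPM in CDAHFD-fed WT females, and 196, 143, 215 and 179.6 CPM on ND and 153, 149, 179 and 124 CPM on CDAHFD in Cyp2b-null females. WT males held 202, 243, 228 and 219 CPM on ND and 200.05, 173, 151 and 161 CPM on CDAHFD and Cyp2b-null males 220.2, 209, 208 and 178 CPM on ND and 153, 150.1, 133 and 176 CPM on CDAHFD. The Bhmt2 groups did not overlap except in Cyp2b-null females, and the log2 change was -0.47 ± 0.15 in WT females (adjusted p = 0.0297), -0.28 ± 0.15 in Cyp2b-null females (adjusted p = 0.175), -0.38 ± 0.12 in WT males (adjusted p = 0.0159) and -0.41 ± 0.12 in Cyp2b-null males (adjusted p = 0.00827); scaled by library size alone it was 0.0025 in WT males. The Bhmt2 call was lost without any of 5 WT female libraries (adjusted p up to 0.0937) and, in WT males, without CDAHFD-fed replicate 3 (0.0633). Mtr, methionine synthase, stood at 3.34 to 13.8 CPM over all libraries and passed no test, whereas Mtrr, its reductase, rose in WT males (0.82 ± 0.28, adjusted p = 0.0268) and Cyp2b-null males (0.81 ± 0.27, adjusted p = 0.0232) from a low level of 2.28 to 5.58 and 2.46 to 6.01 CPM. Leaving out any of 4 WT male or 5 Cyp2b-null male libraries took the Mtrr call away, with adjusted p up to 0.0917 and 0.0817.

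All 4 transsulfuration and taurine genes fell in all 4 comparisons, and Csad fell furthest of the members in all but WT females, where Gnmt did. Csad (chromosome 15, 102176997 to 102205052), cysteine sulfinic acid decarboxylase, the enzyme that commits cysteine sulfinate to taurine, read 469.7, 201, 156 and 224 CPM in ND-fed WT females and 86.1, 51.7, 59.4 and 51.2 CPM on CDAHFD. Cyp2b-null females held 175, 237, 255 and 537 CPM on ND and 41.8, 43.2, 41.7 and 61.1 CPM on CDAHFD. In each female genotype 1 ND-fed liver, replicate 1 of the WT and replicate 4 of the nulls, was above the other 3, which reached 224 and 255 CPM. Males held 759, 572, 702 and 649 CPM (ND-fed WT), 83.6, 78.8, 83.6 and 91.6 CPM (CDAHFD-fed WT), 881, 859, 633 and 749 CPM (ND-fed Cyp2b-null) and 72, 68, 48.6 and 69.9 CPM (CDAHFD-fed Cyp2b-null). ND-fed and CDAHFD-fed libraries did not overlap in any genotype or sex. The log2 change was -2.09 ± 0.33 in WT females (adjusted p = 7.26e-05), -2.68 ± 0.33 in Cyp2b-null females (adjusted p = 5.59e-06), -2.99 ± 0.15 in WT males (adjusted p = 1.17e-11) and -3.60 ± 0.15 in Cyp2b-null males (adjusted p = 7.73e-13).

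Upstream of Csad, Cdo1, cysteine dioxygenase, read 2157, 2888, 3033 and 2967 CPM in ND-fed and 1145, 1347, 1269 and 1167 CPM in CDAHFD-fed WT females, and 1807, 1918, 2293 and 2273 CPM on ND and 1382, 1212, 1183 and 1045 CPM on CDAHFD in Cyp2b-null females. In males it read 2534, 1815, 2535 and 2765 CPM on ND and 1518, 1196, 1183 and 1228 CPM on CDAHFD (WT) and 2142, 1889.9, 2257 and 1755 CPM on ND and 1513, 1174, 1180.2 and 1262 CPM on CDAHFD (Cyp2b-null). These groups did not overlap by diet, and the log2 change was -1.16 ± 0.14 in WT females (adjusted p = 3.17e-06), -0.78 ± 0.14 in Cyp2b-null females (adjusted p = 0.000222), -0.91 ± 0.15 in WT males (adjusted p = 6.43e-05) and -0.65 ± 0.15 in Cyp2b-null males (adjusted p = 0.00144). Cth (chromosome 3, 157894248 to 157925081), cystathionine gamma-lyase, read 528, 396, 693 and 536 CPM in ND-fed and 208, 228, 218 and 149.8 CPM in CDAHFD-fed WT females. Cyp2b-null females were less even, with 353, 264, 588 and 213 CPM on ND and 254, 235, 168 and 232 CPM on CDAHFD, ranges that overlap. Male Cth was 372, 326, 426 and 301 CPM on ND and 256, 196, 157 and 236 CPM on CDAHFD in WT and 300.3, 306, 331 and 322 CPM on ND and 168, 212, 138 and 163 CPM on CDAHFD in Cyp2b-null livers, with no overlap. The log2 change of Cth was -1.42 ± 0.24 in WT females (adjusted p = 0.000181), -0.67 ± 0.24 in Cyp2b-null females (adjusted p = 0.0394), -0.76 ± 0.15 in WT males (adjusted p = 0.00061) and -0.89 ± 0.15 in Cyp2b-null males (adjusted p = 9.96e-05); in Cyp2b-null females the call was lost without any of 5 of the 8 libraries, with -0.56 without the CDAHFD-fed replicate 3 (adjusted p = 0.110) and -0.32 without the ND-fed replicate 3 (adjusted p = 0.260). With the replicate number as a block it was -0.58 (adjusted p = 0.0599).

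Cbs, cystathionine beta-synthase, the entry to the pathway, read 744, 623, 586 and 612 CPM in ND-fed and 317, 300.3, 466 and 335 CPM in CDAHFD-fed WT females, and 450.1, 544, 654 and 607 CPM on ND and 385, 339.7, 453 and 294 CPM on CDAHFD in Cyp2b-null females. WT males held 565, 677, 605 and 574 CPM on ND and 522, 435, 328 and 366 CPM on CDAHFD, Cyp2b-null males 691, 633, 582 and 575 CPM on ND and 383, 415, 274 and 363 CPM on CDAHFD. Diet groups overlapped in Cyp2b-null females and not elsewhere. The diet changed Cbs by log2 -0.85 ± 0.16 in WT females (adjusted p = 0.000549), -0.62 ± 0.16 in Cyp2b-null females (adjusted p = 0.00705), -0.55 ± 0.15 in WT males (adjusted p = 0.00596) and -0.79 ± 0.15 in Cyp2b-null males (adjusted p = 0.000223).

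**Figure D2:**
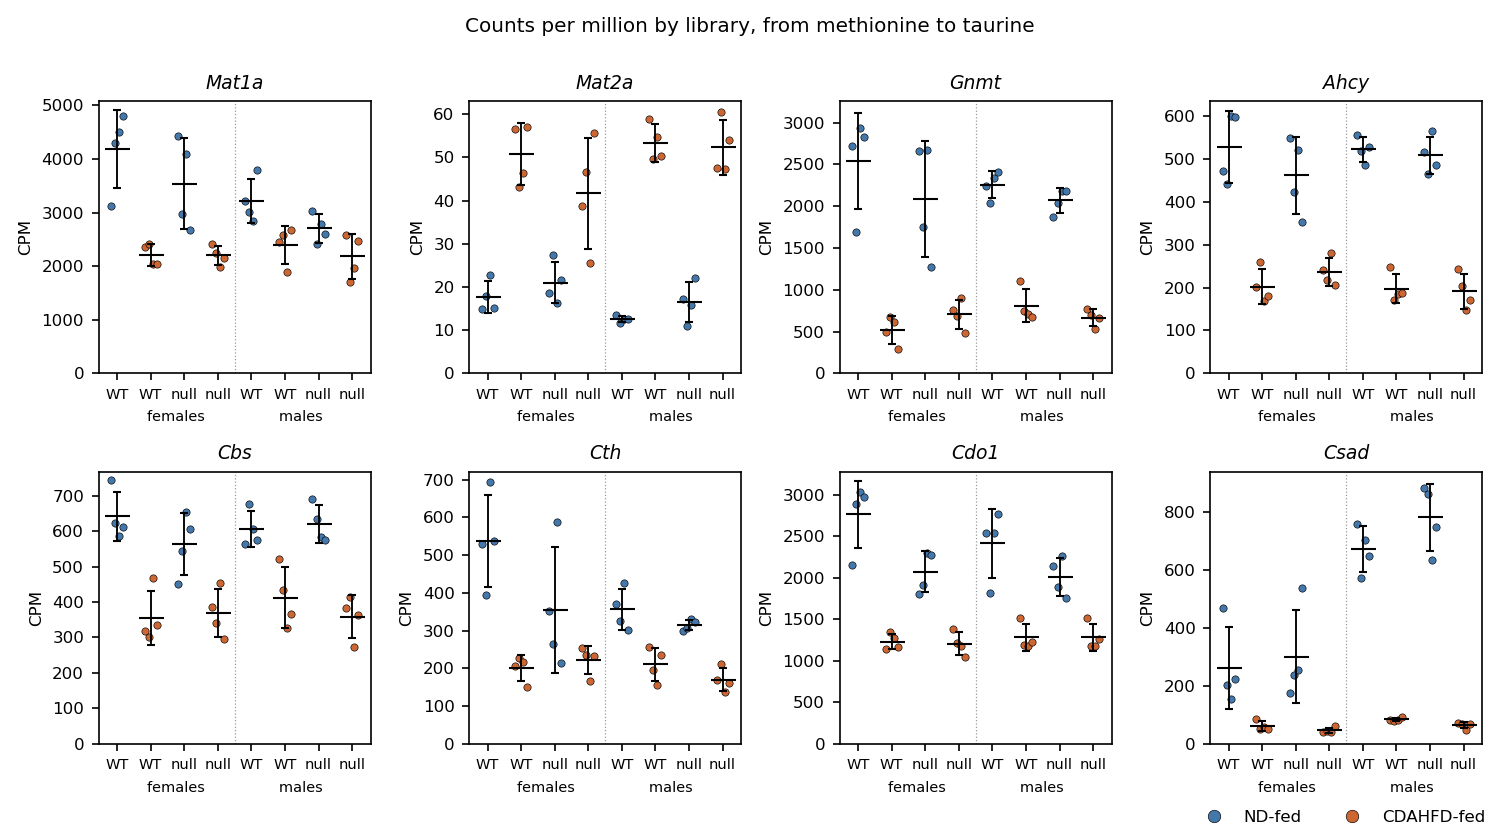
CPM (vertical axes, from 0) of 8 members along the route from methionine to taurine in the 8 groups; each point is 1 library, the bar is the mean and the whiskers ± 1 SD of 4 libraries, blue for ND and orange for CDAHFD, with "null" for Cyp2b-null. Mat2a is the panel where the orange points lie above the blue ones; Csad in CDAHFD-fed males lies between 48.6 and 91.6 CPM, below every ND-fed male.

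In the folate cycle the mitochondrial enzyme Mthfd1l rose in all 4 comparisons and Mthfd2 in 3, while the cytosolic Mthfd1 and Shmt1 fell in all 4. Mthfd1l (chromosome 10, 3972892 to 4167081), the mitochondrial formyltetrahydrofolate synthetase, was near the floor on ND: the counts were 3, 0, 1 and 3 in ND-fed WT females and 4, 0, 3 and 0 in ND-fed WT males. On CDAHFD it read 5.58, 2.43, 1.64 and 3.87 CPM in WT females and 4.11, 5.32, 4.03 and 4.54 CPM in WT males, above every ND-fed WT library of that sex. ND-fed Cyp2b-null livers held 2.43, 2.003, 1.17 and 1.35 CPM (females) and 1.2, 0.671, 1.24 and 2.4 CPM (males), and CDAHFD-fed ones 4.15, 2.96, 2.89 and 4.85 and 4.75, 6.87, 6.33 and 3.23 CPM. Summed over a group, the ratio of CDAHFD to ND was 7.92 in WT females (95% interval for counting error only, 3.64 to 20.4), 2.19 in Cyp2b-null females (1.43 to 3.45), 15.01 in WT males (7.04 to 38.2) and 4.25 in Cyp2b-null males (2.899 to 6.44). The edgeR adjusted p were 0.000316, 0.0433, 1.21e-05 and 0.000699; the call in Cyp2b-null females was lost on leaving out any of 5 of its 8 libraries, with adjusted p up to 0.132.

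Mthfd2 (chromosome 6, 83305704 to 83326011), the mitochondrial methylenetetrahydrofolate dehydrogenase that dividing cells use, read 1.2, 1.17, 0.339 and 0.693 CPM in ND-fed and 4.46, 4.37, 7.38 and 5.48 CPM in CDAHFD-fed WT females. WT males held 0.543, 1.63, 1.48 and 1.29 CPM on ND and 5.04, 5.94, 4.26 and 4.89 CPM on CDAHFD, and Cyp2b-null males 1.64, 1.34, 1.04 and 1.74 CPM on ND and 5.22, 10.0, 4.19 and 3.43 CPM on CDAHFD. In these 3 comparisons the diets did not overlap, whereas Cyp2b-null females did, at 0.91, 1.4, 1.95 and 1.69 CPM on ND and 1.3, 1.97, 3.97 and 4.6 CPM on CDAHFD. Fitted log2 changes of Mthfd2 were 2.63 ± 0.44 in WT females (adjusted p = 0.000123), 1.04 ± 0.41 in Cyp2b-null females (adjusted p = 0.0574), 1.98 ± 0.38 in WT males (adjusted p = 0.000349) and 1.98 ± 0.36 in Cyp2b-null males (adjusted p = 0.00019). The ratio of summed CPM was 6.38 (counting interval 3.64 to 12.1), 2.17 (1.36 to 3.56), 3.89 (2.59 to 6.01) and 4.06 (2.81 to 6.03) in the same order.

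The cytosolic Mthfd1, a trifunctional folate enzyme, changed by log2 -0.66 ± 0.16 in WT females (adjusted p = 0.00444), -0.54 ± 0.16 in Cyp2b-null females (adjusted p = 0.0143), -0.78 ± 0.15 in WT males (adjusted p = 0.000288) and -0.78 ± 0.15 in Cyp2b-null males (adjusted p = 0.000232); without ND-fed Cyp2b-null female replicate 3 its adjusted p in Cyp2b-null females was 0.0511. Shmt1, cytosolic serine hydroxymethyltransferase, changed by log2 -0.92 ± 0.16 in WT females (adjusted p = 0.000219), -0.88 ± 0.16 in Cyp2b-null females (adjusted p = 0.000314), -0.98 ± 0.13 in WT males (adjusted p = 4.22e-06) and -1.04 ± 0.13 in Cyp2b-null males (adjusted p = 1.40e-06). Every CDAHFD-fed liver had less Mthfd1 and Shmt1 than every ND-fed liver of its genotype and sex. Ftcd, which breaks down histidine onto folate, fell in WT females (-0.56 ± 0.13, adjusted p = 0.00358), WT males (-0.77 ± 0.13, adjusted p = 0.000114) and Cyp2b-null males (-0.68 ± 0.13, adjusted p = 0.00029). In Cyp2b-null females the Ftcd change was -0.29 ± 0.13 (adjusted p = 0.101), and -0.40 without replicate 3 (adjusted p = 0.0162). The mitochondrial Shmt2 and thymidylate synthase Tyms passed no diet test, and their groups stood at 175 to 222 and 5.8 to 7.01 CPM in ND-fed WT females. Within a library Shmt1 outnumbered Mthfd2 by a median of 259 to 1 in ND-fed and 21.3 to 1 in CDAHFD-fed WT females, and by 123 and 17.3 to 1 in WT males.

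**Figure D3:**
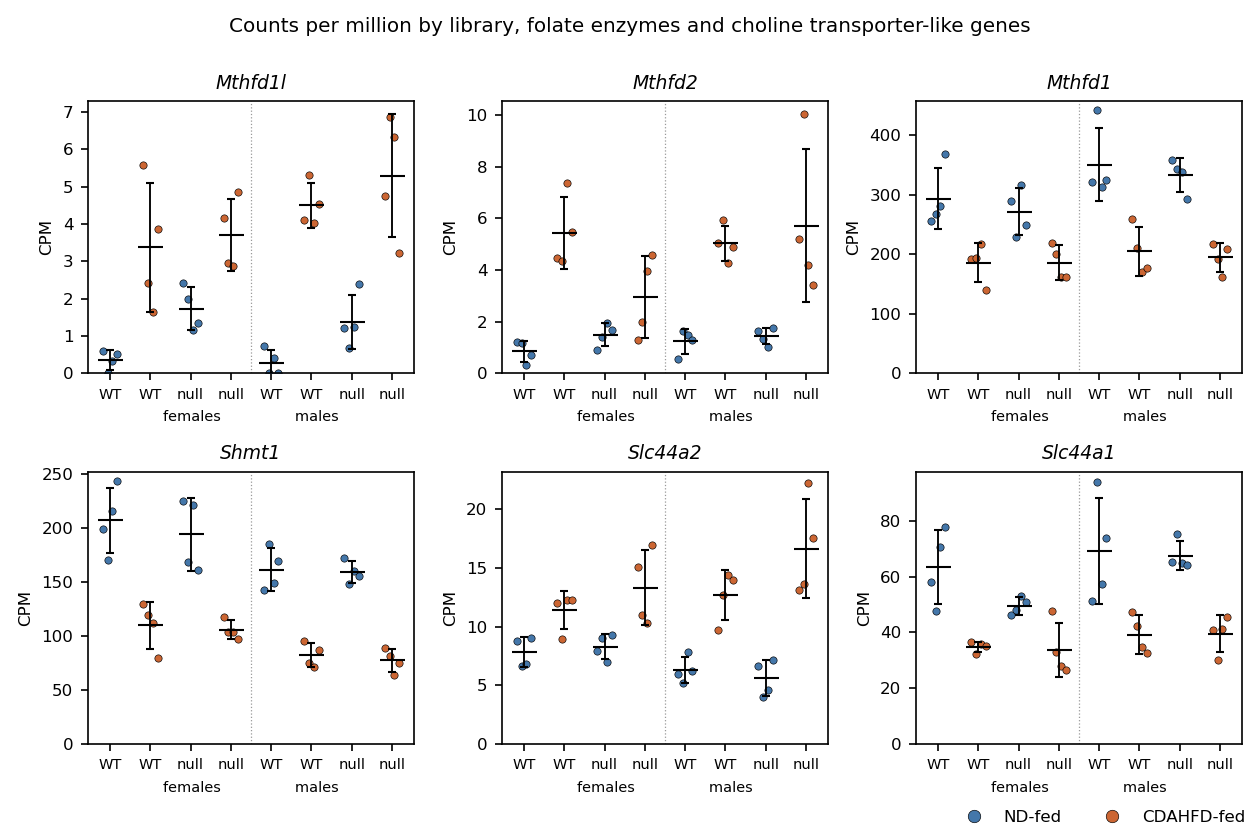
CPM (vertical axes, from 0) of 4 folate enzymes and a pair of choline transporter-like genes in the 8 groups; each point is 1 library, with the mean and ± 1 SD of 4 libraries, blue for ND and orange for CDAHFD. Mthfd1l, Mthfd2 and Slc44a2 lie higher on CDAHFD in most groups and Mthfd1, Shmt1 and Slc44a1 lower; Mthfd1l in ND-fed WT livers lies at or under 0.724 CPM.

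Choline oxidation runs from choline through betaine to sarcosine and glycine. Of its 4 enzymes here, 2, 2, 3 and 4 fell in the 4 comparisons and 0 rose by edgeR. Dmgdh, dimethylglycine dehydrogenase, fell in all 4, with log2 changes of -0.76 ± 0.17 in WT females (adjusted p = 0.0019), -0.60 ± 0.17 in Cyp2b-null females (adjusted p = 0.00957), -0.64 ± 0.14 in WT males (adjusted p = 0.00105) and -0.74 ± 0.14 in Cyp2b-null males (adjusted p = 0.000201). For Sardh, sarcosine dehydrogenase, the change was -0.80 ± 0.20 in WT females (adjusted p = 0.00621), -0.52 ± 0.20 in Cyp2b-null females (adjusted p = 0.058), -0.58 ± 0.15 in WT males (adjusted p = 0.00374) and -0.69 ± 0.15 in Cyp2b-null males (adjusted p = 0.000741), and the diet groups did not overlap in any of the 4. Chdh, choline dehydrogenase, read 231, 219, 183 and 215 CPM in ND-fed and 229.7, 216, 229 and 164 CPM in CDAHFD-fed WT females, 234, 287, 236 and 268 CPM on ND and 186, 207, 135 and 219 CPM on CDAHFD in Cyp2b-null females. In males the values were 203, 255, 243 and 253 CPM on ND and 222, 227, 219.6 and 241 CPM on CDAHFD (WT) and 235, 271, 250.3 and 275 CPM on ND and 221, 169, 199.7 and 227 CPM on CDAHFD (Cyp2b-null). WT livers overlapped; in Cyp2b-null livers Chdh changed by -0.46 ± 0.15 in females (adjusted p = 0.0262; without replicate 3, -0.33 with adjusted p = 0.0677) and -0.34 ± 0.11 in males (adjusted p = 0.0232, up to 0.0929 without 1 library), and the interaction with genotype did not pass in either sex (adjusted p = 0.76 and 0.855).

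Aldh7a1, which oxidizes betaine aldehyde among other aldehydes, read 607, 539.7, 635 and 514 CPM in ND-fed and 438, 360.0, 321 and 319 CPM in CDAHFD-fed WT males, and 565, 624, 651 and 631 CPM on ND and 319, 325, 311 and 357 CPM on CDAHFD in Cyp2b-null males. Females held 451, 425, 489 and 515 CPM on ND and 346, 385, 448 and 281 CPM on CDAHFD (WT) and 486, 447, 498 and 396 CPM on ND and 414, 403, 480.4 and 356 CPM on CDAHFD (Cyp2b-null). The males separated by diet and the females did not. The log2 change was -0.37 ± 0.14 in WT females (adjusted p = 0.0683), -0.14 ± 0.14 in Cyp2b-null females (adjusted p = 0.477), -0.68 ± 0.12 in WT males (adjusted p = 0.000164) and -0.91 ± 0.12 in Cyp2b-null males (adjusted p = 4.12e-06).

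Among the 10 phospholipid synthesis genes, of which 9 were tested, 4, 4, 3 and 4 fell and 0 rose by edgeR (6, 5, 5 and 6 had an unadjusted p under 0.05). Chpt1 (chromosome 10, 88469513 to 88503970), cholinephosphotransferase, the last step from CDP-choline to phosphatidylcholine, read 133, 124, 118 and 119 CPM in ND-fed and 85.7, 99.2, 83.6 and 69.9 CPM in CDAHFD-fed WT females, and 136, 148, 154 and 135 CPM on ND and 128, 87.6, 68.7 and 83 CPM on CDAHFD in Cyp2b-null females. WT males held 257, 232, 244 and 236 CPM on ND and 194, 133, 123 and 119 CPM on CDAHFD, and Cyp2b-null males 291, 437, 332 and 386 CPM on ND and 101, 89.4, 95.6 and 94.8 CPM on CDAHFD. All 4 pairs of diet groups were apart, with the widest gap in Cyp2b-null males. The diet changed Chpt1 by log2 -0.55 ± 0.16 in WT females (adjusted p = 0.0135), -0.64 ± 0.16 in Cyp2b-null females (adjusted p = 0.00355), -0.77 ± 0.15 in WT males (adjusted p = 0.00032) and -1.93 ± 0.15 in Cyp2b-null males (adjusted p = 4.34e-09). In WT females the adjusted p was 0.0574 without CDAHFD-fed replicate 4. Of its exonic bases 660 of 7944 are shared with Sycp3.

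Cept1, which makes both phosphatidylcholine and phosphatidylethanolamine, changed by log2 -0.55 ± 0.15 in WT females (adjusted p = 0.00949), -0.56 ± 0.15 in Cyp2b-null females (adjusted p = 0.00679), -0.40 ± 0.12 in WT males (adjusted p = 0.0117) and -0.44 ± 0.12 in Cyp2b-null males (adjusted p = 0.00472); scaled by library size alone its change in WT males was 0.0014. Pcyt2, the rate-limiting enzyme of the CDP-ethanolamine route to phosphatidylethanolamine, changed by -0.58 ± 0.15 in WT females (adjusted p = 0.00700), -0.31 ± 0.15 in Cyp2b-null females (adjusted p = 0.119), -0.46 ± 0.11 in WT males (adjusted p = 0.00233) and -0.51 ± 0.11 in Cyp2b-null males (adjusted p = 0.000861), and in Cyp2b-null females by -0.46 without replicate 3 (adjusted p = 0.0155). Pcyt1a, its counterpart in the CDP-choline route, read 102, 95.1, 94.2 and 97 CPM in ND-fed and 91, 76.2, 94.1 and 68.5 CPM in CDAHFD-fed WT females, 138, 105, 125 and 99.1 CPM on ND and 93.4, 77.8, 50.5 and 86.2 CPM on CDAHFD in Cyp2b-null females. In males it was 112, 158, 122 and 185 CPM on ND and 113, 130.0, 108 and 103 CPM on CDAHFD (WT) and 147, 132, 123 and 112 CPM on ND and 121, 99.6, 111 and 129 CPM on CDAHFD (Cyp2b-null). Of the 4 diet tests of Pcyt1a 1 passed, in Cyp2b-null females (-0.60 ± 0.17, adjusted p = 0.00912). The ethanolamine kinases moved in part: Etnk1 fell in Cyp2b-null females (-0.54 ± 0.19, adjusted p = 0.0325; -0.35 with adjusted p = 0.0713 without replicate 3) and Cyp2b-null males (-0.61 ± 0.15, adjusted p = 0.00269), and Etnk2 in WT females (-0.53 ± 0.17, adjusted p = 0.0271, up to 0.0912 without 1 library).

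Pemt, which methylates phosphatidylethanolamine to phosphatidylcholine, passed no diet test (adjusted p of 0.0543 to 0.866). It read 409.9, 317, 456 and 449.5 CPM in ND-fed and 338, 276, 274 and 296 CPM in CDAHFD-fed WT females, 366, 375, 405 and 329 CPM on ND and 296, 325, 557 and 343 CPM on CDAHFD in Cyp2b-null females, where replicate 3 was the high one. Males held 343, 242, 405 and 259 CPM on ND and 331, 256, 261 and 321 CPM on CDAHFD (WT) and 260.5, 320.3, 379.7 and 349 CPM on ND and 291, 296, 227 and 270.3 CPM on CDAHFD (Cyp2b-null). The first enzyme of the choline route, choline kinase Chka, also passed none (adjusted p of 0.0848 to 0.953) and overlapped in every comparison. Its values were 57, 30.8, 30.5 and 18.7 CPM in ND-fed and 37.2, 52.1, 66 and 64 CPM in CDAHFD-fed WT females, and 13, 19.2, 23 and 30.9 CPM on ND and 34.3, 35, 22.4 and 38.8 CPM on CDAHFD in Cyp2b-null females. In males they were 22.4, 52.3, 41.7 and 32.2 CPM on ND and 34, 33.2, 45.9 and 33 CPM on CDAHFD (WT) and 32.8, 42.7, 21.5 and 23.5 CPM on ND and 19.6, 37, 34 and 17.6 CPM on CDAHFD (Cyp2b-null). Lpcat3, which remodels the acyl chains of phosphatidylcholine, passed none either (adjusted p of 0.0592 to 0.731).

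The choline transporter-like proteins split. Slc44a1, the widely expressed member, read 58.2, 47.5, 70.5 and 77.7 CPM in ND-fed and 36.6, 32.3, 35.7 and 35 CPM in CDAHFD-fed WT females, and 51.4, 94.1, 57.5 and 74 CPM on ND and 47.4, 42.4, 34.7 and 32.5 CPM on CDAHFD in WT males. Cyp2b-null females held 46.1, 47.9, 53 and 51 CPM on ND and 47.8, 32.9, 28 and 26.6 CPM on CDAHFD, and Cyp2b-null males 65.4, 75.4, 65 and 64.3 CPM on ND and 41, 30.1, 41.3 and 45.7 CPM on CDAHFD. Diet groups of Slc44a1 overlapped in Cyp2b-null females only. It fell in all 4 comparisons, with log2 changes of -0.87 ± 0.17 in WT females (adjusted p = 0.000687), -0.56 ± 0.17 in Cyp2b-null females (adjusted p = 0.0171), -0.82 ± 0.17 in WT males (adjusted p = 0.000871) and -0.78 ± 0.17 in Cyp2b-null males (adjusted p = 0.00113). Slc44a2, in contrast, read 5.97, 5.2, 7.81 and 6.22 CPM in ND-fed and 9.7, 12.7, 14.4 and 14 CPM in CDAHFD-fed WT males, and 6.67, 4.03, 4.55 and 7.19 CPM on ND and 13.1, 13.6, 22.3 and 17.6 CPM on CDAHFD in Cyp2b-null males. In females it was 8.8, 6.62, 6.78 and 9.004 CPM on ND and 12, 8.97, 12.3 and 12.2 CPM on CDAHFD (WT) and 7.89, 9.01, 7.02 and 9.28 CPM on ND and 15.1, 11, 10.3 and 16.9 CPM on CDAHFD (Cyp2b-null). Slc44a2 overlapped by diet in WT females and in no other comparison. Its log2 change was 0.52 ± 0.21 in WT females (adjusted p = 0.0726), 0.66 ± 0.20 in Cyp2b-null females (adjusted p = 0.0161), 1.01 ± 0.23 in WT males (adjusted p = 0.00157) and 1.55 ± 0.22 in Cyp2b-null males (adjusted p = 1.35e-05). Without CDAHFD-fed Cyp2b-null female replicate 4 the female calls in nulls were lost for Slc44a1 (adjusted p = 0.0628) and Slc44a2 (0.0720). Slc44a1 outnumbered Slc44a2 by a median of 10.3 to 1 in ND-fed and 2.87 to 1 in CDAHFD-fed WT males. Slc44a3 passed no diet test (adjusted p of 0.189 to 0.942).

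Of the 5 polyamine and methionine salvage genes, 0, 0, 0 and 1 fell and 0 rose by edgeR, where 0, 1, 1 and 1 had an unadjusted p under 0.05. The other methyltransferases, Nnmt and Gamt, passed once between them. Nnmt, which methylates nicotinamide, read 86.4, 63.5, 115 and 84.5 CPM in ND-fed and 44.8, 56.8, 43.9 and 77.7 CPM in CDAHFD-fed WT females, and 82.5, 49.9, 114 and 25.5 CPM on ND and 47.8, 46, 72.7 and 35.6 CPM on CDAHFD in Cyp2b-null females. Males held 69.5, 89.7, 95.9 and 50.4 CPM on ND and 90.3, 46, 38 and 36.2 CPM on CDAHFD (WT) and 59.3, 78.3, 67.1 and 71.1 CPM on ND and 46.8, 58.4, 28.4 and 62.6 CPM on CDAHFD (Cyp2b-null), and no test passed (adjusted p of 0.118 to 0.361). Gamt, which makes creatine, fell in WT females (-0.59 ± 0.19, adjusted p = 0.0296, up to 0.118 without 1 library). Odc1, ornithine decarboxylase, read 33.8, 38.2, 31.9 and 44.7 CPM in ND-fed and 33, 37.4, 44.1 and 52 CPM in CDAHFD-fed WT females, 41.6, 31.4, 28.9 and 33.2 CPM on ND and 40.5, 39.5, 46.9 and 39.4 CPM on CDAHFD in Cyp2b-null females. In males it held 39.1, 48.8, 32.3 and 31.8 CPM on ND and 33.4, 41.3, 39.1 and 48.4 CPM on CDAHFD (WT) and 49.3, 38, 26.9 and 33.8 CPM on ND and 35.6, 39.5, 38.9 and 40.2 CPM on CDAHFD (Cyp2b-null). Odc1 overlapped in every comparison (adjusted p of 0.162 to 0.851), as did the S-adenosylmethionine decarboxylase Amd1 (adjusted p of 0.204 to 0.786), the spermidine synthase Srm (0.101 to 0.637) and Mtap, which salvages methionine (0.0616 to 0.57). The spermine synthase Sms, at 1.17 to 5.26 CPM over all libraries, fell in Cyp2b-null males (-0.74 ± 0.29, adjusted p = 0.0466), a call lost with DESeq2 (0.0624), with the replicate number as a block (0.0507) and without any of 6 of its 8 libraries (up to 0.187). Amd1, Sms, Odc1 and Tyms share transcript sequence with pseudogenes or close copies, and Mat2a shares 215 bases with Gm9523. Of the 3059 exonic bases of Cept1, 776 overlap Dennd2d and Dram2, a sum over genes. How the counter treated such reads was not stated.

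Beyond the 46 members, 94 further genes of neighboring pathways were listed, of which 83 were tested in females and 86 in males. These lists too were chosen with earlier results of these data known. On CDAHFD 10 rose and 18 fell in WT females, 10 and 16 in Cyp2b-null females, 14 and 18 in WT males, and 13 and 28 in Cyp2b-null males, with medians of -0.16, 0.06, -0.17 and -0.17. In the same order, 13.9%, 16.9%, 18% and 20.3% of all genes tested rose and 10.2%, 13.9%, 15% and 17.1% fell. The folate and glycine cleavage genes that passed were lower in 4, 4, 3 and 6 cases and higher in 0, 1, 1 and 0 of 19 tested. Those for cysteine, taurine, glutathione and sulfide were lower in 5, 4, 6 and 5 and higher in 1 of 12 in each comparison. Choline uptake and phospholipid remodeling genes went both ways, with 6, 4, 7 and 6 higher and 6, 3, 4 and 7 lower, as did 9 or 10 tested methyltransferases (1, 2, 2 and 3 higher, 2, 2, 3 and 4 lower) and 15 polyamine and salvage genes (2, 2, 3 and 3 higher, 1, 2, 1 and 3 lower). For cobalamin handling and methionine repair 0, 1, 1 and 3 fell and 0 rose by edgeR, while 2, 1, 2 and 4 had an unadjusted p under 0.05.

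Among the genes of those lists that passed in all 4 comparisons, the largest rises were those of Lpcat2, Smox and Mfsd7c. Lpcat2, an acyltransferase of inflammatory cells, changed by log2 1.58 ± 0.30 in WT females (adjusted p = 0.000544), 1.58 ± 0.29 in Cyp2b-null females (adjusted p = 0.000339), 1.81 ± 0.39 in WT males (adjusted p = 0.00112) and 2.20 ± 0.40 in Cyp2b-null males (adjusted p = 0.000164). Smox, spermine oxidase, changed by 1.73 ± 0.28 in WT females (adjusted p = 0.000113), 1.25 ± 0.27 in Cyp2b-null females (adjusted p = 0.00152), 1.42 ± 0.29 in WT males (adjusted p = 0.000611) and 1.69 ± 0.28 in Cyp2b-null males (adjusted p = 7.11e-05), and Mfsd7c, a choline transporter also called Flvcr2, by 1.47 ± 0.30 in WT females (adjusted p = 0.000887), 1.07 ± 0.30 in Cyp2b-null females (adjusted p = 0.00915), 1.21 ± 0.23 in WT males (adjusted p = 0.000317) and 1.45 ± 0.23 in Cyp2b-null males (adjusted p = 4.17e-05). The largest falls were those of Inmt, Etnppl and Pipox. Inmt, which methylates indoleamines with S-adenosylmethionine, went from 522 to 722 CPM in ND-fed to 57.6 to 104 CPM in CDAHFD-fed WT males and changed by -1.51 ± 0.39 in WT females (adjusted p = 0.00616), -1.04 ± 0.38 in Cyp2b-null females (adjusted p = 0.0423), -3.04 ± 0.21 in WT males (adjusted p = 1.41e-09) and -3.13 ± 0.21 in Cyp2b-null males (adjusted p = 9.49e-10). Etnppl, which degrades phosphoethanolamine, changed by -1.59 ± 0.16 in WT females (adjusted p = 3.60e-07), -1.32 ± 0.16 in Cyp2b-null females (adjusted p = 3.06e-06), -2.05 ± 0.19 in WT males (adjusted p = 7.65e-08) and -1.86 ± 0.19 in Cyp2b-null males (adjusted p = 1.87e-07), and Pipox, a peroxisomal oxidase of sarcosine and pipecolate, by -1.23 ± 0.17 in WT females (adjusted p = 1.74e-05), -1.11 ± 0.17 in Cyp2b-null females (adjusted p = 4.77e-05), -1.53 ± 0.13 in WT males (adjusted p = 1.14e-08) and -1.60 ± 0.13 in Cyp2b-null males (adjusted p = 4.52e-09).

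The second question was whether losing Cyp2b9, Cyp2b10 and Cyp2b13 altered these genes. By edgeR, 0 of 45 members passed on ND in females (0.0756% of all genes did), on CDAHFD in females (0.0227%), on ND in males (0.0371%) or on CDAHFD in males (0.0297%). The interaction of genotype and diet passed for 0 members in females (0% of all genes) and in males (0.00743%). At an unadjusted p under 0.05 there were 7, 3, 4 and 2 members in the 4 genotype comparisons and 5 and 4 in the interactions, where 5.75%, 5.83%, 8.26%, 3.62%, 6.28% and 6.07% of all genes were. With no filter on low counts edgeR called 1 member in each of the 6: Bhmt on ND in females and in the female interaction and Chka on CDAHFD in females (adjusted p = 4.08e-08, 0.000401 and 0.00882), and Chpt1 on ND, on CDAHFD and in the interaction in males. In that setting 122 of all 25490 genes passed on ND and 69 on CDAHFD in females, and 46 in the female interaction. In males 170 of 25760 passed on ND, 51 on CDAHFD and 95 in the interaction. DESeq2 called 2 members on ND in males, Mat2b and Chpt1, and 1 in the male interaction, Chpt1, and 0 in the other 4. Over all 13460 genes it called 72 on ND in males and 3 in the male interaction. Of the 94 neighboring genes edgeR likewise called 0 in all 6, with 7, 10, 5 and 1 at an unadjusted p under 0.05 in the genotype comparisons and 7 and 1 in the interactions.

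Chpt1 in males came nearest to a dependence on genotype. On ND every Cyp2b-null male (291 to 437 CPM) was above every WT male (232 to 257 CPM), and on CDAHFD every Cyp2b-null male (89.4 to 101 CPM) was below every WT male (119 to 194 CPM). The log2 difference of Cyp2b-null against WT was 0.58 ± 0.14 on ND (adjusted p = 0.156) and -0.58 ± 0.15 on CDAHFD (adjusted p = 1.0). With no filter on low counts both passed (adjusted p = 0.0117 and 0.0344), and with DESeq2 the difference on ND did (adjusted p = 0.0297). The interaction was -1.16 ± 0.21 with an edgeR adjusted p = 0.100; it was 0.000573 with DESeq2, 0.0248 in 1 fit to both sexes, 0.0264 scaled by library size alone and 1.06e-05 with no filter on low counts. In females the Chpt1 interaction was -0.10 ± 0.22 (adjusted p = 0.933), and 0.02 ± 0.19 without replicate 3 (adjusted p = 1.0).

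The other differences with an unadjusted p under 0.05 were as follows. On ND, Cyp2b-null females had values of -1.12 ± 0.35 for Bhmt, -0.61 ± 0.24 for Cth, -0.41 ± 0.14 for Cdo1, -0.66 ± 0.29 for Chka and -0.37 ± 0.17 for Slc44a1 against WT females, and 0.36 ± 0.16 for Mat2b (all adjusted p of 0.572 or more). Mthfd1l was at 1.17 to 2.43 CPM in ND-fed Cyp2b-null females and at 0 to 0.6001 CPM in ND-fed WT females, without overlap (adjusted p = 0.572), and in ND-fed males at 0.671 to 2.4 CPM (Cyp2b-null) and 0 to 0.724 CPM (WT) (adjusted p = 0.289). ND-fed Cyp2b-null males also differed by 0.50 ± 0.12 in Mat2b (adjusted p = 0.145) and 0.40 ± 0.17 in Mat2a (adjusted p = 0.53). On CDAHFD the values were -0.81 ± 0.33 for Mthfd2, 0.36 ± 0.17 for Pemt and -0.75 ± 0.27 for Chka in females, and -0.39 ± 0.14 for Csad in males (adjusted p of 0.826 or more). Without CDAHFD-fed Cyp2b-null female replicate 3 the Pemt difference shrank to 0.12 ± 0.13. None of these passed the adjusted test.

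The interactions in the same class were 1.21 ± 0.48 for Bhmt, 0.75 ± 0.34 for Cth, -1.59 ± 0.63 for Mthfd2 and 0.51 ± 0.24 for Pemt in females (adjusted p = 0.76 for each), and -0.46 ± 0.17 for Mat2b and -0.61 ± 0.20 for Csad in males (adjusted p = 0.699 and 0.654). Without CDAHFD-fed Cyp2b-null female replicate 3 the Pemt interaction shrank to 0.27 ± 0.18. For Mthfd1l the fitted interactions had adjusted p = 0.76 and 0.699. The SEs of these interactions, on the log2 scale, were 0.17 to 0.73.

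**Figure D4:**
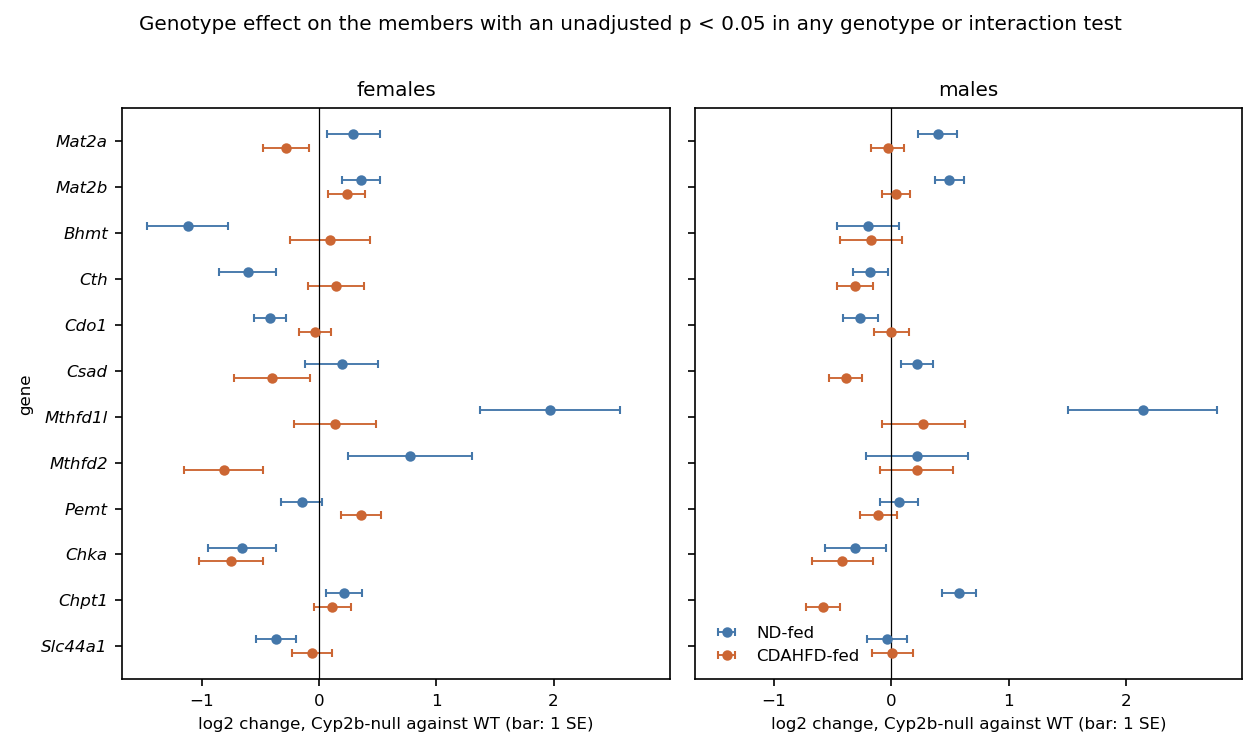
Log2 difference of Cyp2b-null against WT (horizontal axis; bars are ± 1 SE) on ND (blue) and CDAHFD (orange) for the 12 members with an unadjusted p under 0.05 in any genotype or interaction test, females on the left and males on the right. Chpt1 in males lies at 0.58 on ND and -0.58 on CDAHFD, and no point passed the test after adjustment; Mthfd1l on ND rests on counts near the floor in WT mice.

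The third comparison set males against females, with all 32 libraries scaled and fitted together; the CPM of this paragraph and the next are on that joint scale. In ND-fed WT mice 6 of 45 members differed by sex, where 17.8% of all genes did. Csad was higher in males, at 770.5, 582, 715 and 661 CPM against 467, 198, 155 and 223 CPM in females (1.38 ± 0.26, adjusted p = 0.000344). Chpt1 read 261, 236, 249 and 240.4 CPM in males and 132, 121, 117 and 119 CPM in females (1.01 ± 0.15, adjusted p = 1.42e-05). Both genes were apart in every library of the 2 sexes. Pcyt1a (0.61 ± 0.16, adjusted p = 0.00742) and Ahcyl1 (0.47 ± 0.13, adjusted p = 0.0103) were also higher in males. Gamt (-0.80 ± 0.19, adjusted p = 0.00308) and Shmt2 (-0.37 ± 0.13, adjusted p = 0.0413) were higher in females, and the Shmt2 call was lost without any of 5 of the 8 libraries (adjusted p up to 0.155). On CDAHFD 3 of 45 members were higher in WT males, where 11% of all genes differed: Chpt1 (0.81 ± 0.15, adjusted p = 0.000941), Pcyt1a (0.52 ± 0.16, adjusted p = 0.0306) and Gnmt (0.70 ± 0.23, adjusted p = 0.0397). The Gnmt and Pcyt1a calls on CDAHFD were each lost without any of 4 of the 8 libraries (adjusted p up to 0.171 and 0.119). On ND, leaving out WT male replicate 4 took away the Pcyt1a (adjusted p = 0.0535) and Ahcyl1 (adjusted p = 0.0506) calls, and leaving out WT male replicate 2 that of Ahcyl1 (adjusted p = 0.0535).

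The diet effect itself differed by sex in Cyp2b-null mice for 2 of 45 members, where 3.4% of all genes did. Chpt1 went from 295, 445, 338 and 392 CPM on ND to 102, 90.8, 96.9 and 96.2 CPM on CDAHFD in Cyp2b-null males and from 135, 146, 151 and 134 to 124, 84.6, 68 and 80.5 CPM in females. The male minus female diet effect was -1.26 ± 0.22 (adjusted p = 0.000768), and -1.36 without female replicate 3 (adjusted p = 0.000247). Aldh7a1 went from 575, 635, 663 and 642 to 325, 330.4, 315 and 363 CPM in Cyp2b-null males and from 485, 442, 490.0 and 392 to 401, 389, 475 and 346 CPM in females (-0.75 ± 0.18, adjusted p = 0.0185; -0.66 with adjusted p = 0.0439 without female replicate 3). In both genes every ND-fed Cyp2b-null male exceeded every other library of its genotype, and the CDAHFD-fed males and females overlapped. In WT mice 0 of 45 members passed with edgeR or DESeq2, where 0.97% of all genes did with edgeR; 5 members (Mat1a, Mat2a, Gnmt, Cth and Csad) had an unadjusted p under 0.05, where 10.3% of all genes had. For Gnmt that difference was 0.84 ± 0.32 (adjusted p = 0.274) and for Csad -0.88 ± 0.37 (adjusted p = 0.368); without ND-fed WT female replicate 1, the liver with high Csad, it was -1.33 (adjusted p = 0.0460). In Cyp2b-null mice the Csad difference was -0.90 ± 0.37 (adjusted p = 0.178), and -1.34 without ND-fed female replicate 4 (adjusted p = 0.0262). These libraries are named because their own Csad was high, so the fits without them are no independent test of the difference.

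**Figure D5:**
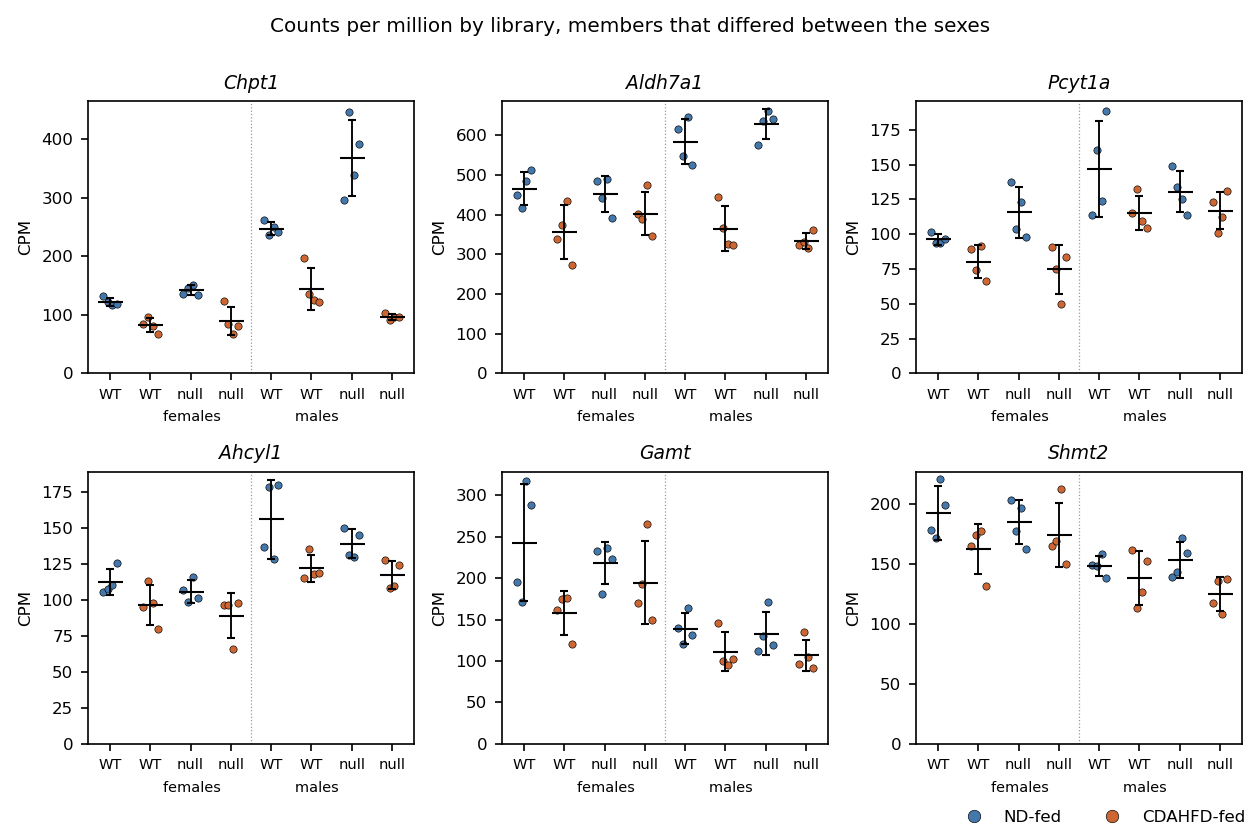
CPM on the joint scale (vertical axes, from 0) of 6 members called in a test between the sexes. Aldh7a1 was called only for the sex difference of the diet effect in Cyp2b-null mice, and Csad and Gnmt, also called between the sexes, are not shown. Each point is 1 library, with the mean and ± 1 SD of 4 libraries, blue for ND and orange for CDAHFD. Chpt1 in ND-fed Cyp2b-null males, at 295 to 445 CPM, lies above every other group, and Gamt and Shmt2 lie lower in ND-fed WT males than in ND-fed WT females.

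On a scale of CPM per kilobase of exon, the group means of ND-fed WT females ran from 2453 for Gnmt, 1731 for Cdo1, 1206 for Mat1a and 775 for Bhmt down to 0.408 for Mthfd2 and 0.0854 for Mthfd1l among the tested members. ND-fed WT males had the same first 4 in the same order, at 2180, 1512, 927 and 702. Csad ranked the 14th member in ND-fed WT females and the fifth in ND-fed WT males. Gene by gene, the members that rose on CDAHFD in every comparison, Mat2a and Mthfd1l, stood at ranks 36 and 45 of 46 in both sexes on ND, whereas Gnmt, Cdo1 and Mat1a, ranks 1 to 3, were among those that fell in WT mice of both sexes. Bhmt, rank 4 in both sexes, and Pemt, rank 5 in females and 7 in males, passed no diet test. Of the low ranks, Mthfd2 (44 in both sexes) rose in all but Cyp2b-null females. Sms (43 in females, 42 in males) fell in Cyp2b-null males, and Mtr (42 and 41) and Tyms (40 in both) passed no diet test.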

How the data were processed

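Total liver RNA of 32 samples (8 groups of 4) had been sequenced and deposited as 2 tables of raw counts per gene, 1 per sex, with 41585 genes each. According to the submitters' processing notes and the methods, the authors' counts came from reads checked by FastQC and trimmed by Trimmomatic, then placed on GRCm38.p6 by GSNAP and assigned to genes by Subread; how reads matching several genes were counted, and strand, were not given in the sources used here. Genes were kept by filterByExpr (smallest count 10, smallest total 15), scaled by TMM and tested within each sex with the quasi-likelihood test of edgeR 4.0.16 (R 4.3.3), with all groups of a sex in 1 fit, Benjamini-Hochberg adjustment over all genes tested and a limit of 0.05; sex differences came from 1 fit to all 32 libraries. SEs are the log2 change divided by the square root of F. DESeq2 1.42.0, RLE or library-size scaling, other filters, a replicate block, single libraries left out and the 30 libraries of the study's heat maps were alternatives. All 32 libraries were used, although the heat maps lack a pair of CDAHFD-fed Cyp2b-null libraries (replicate 3 of the females, replicate 4 of the males), because no reason for that is given. The code was tested on simulated counts. The members and lists were chosen with earlier results of these data known. Values in every library are given for members called in WT mice of both sexes with a log2 change of at least 1 in size in either, members called for genotype, interaction or a sex difference of the diet effect, and 13 isozymes or control points whatever their change; Slc44a1 and Slc44a2 were added after their values were seen, and neighboring genes are named for the 3 largest mean rises and falls among those called in all 4 diet comparisons. Counting intervals are exact and cover counting error only. The labels number 4 libraries a group from livers, with neither an animal identifier nor a batch, so p-values measure the spread between these libraries; 0 libraries held identical values.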

Additional observations from a re-analysis of the deposited data

Results flagged for a closer look

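In 7 of 160 groups of 4 libraries, 1 library lay far from the other 3 by Dixon's test, which chance alone does in about 1 of 20 groups. CDAHFD-fed WT male replicate 1 was high for Gnmt (1101 CPM, the others 680 to 749 CPM) and for Cdo1 (1518 CPM, the others 1183 to 1228 CPM). ND-fed WT female replicate 1 was low for Cdo1, at 2157 CPM against 2888 to 3033 CPM. Csad was high in CDAHFD-fed Cyp2b-null female replicate 4 (61.1 CPM against 41.7 to 43.2 CPM) and low in CDAHFD-fed Cyp2b-null male replicate 3 (48.6 CPM against 68.0 to 72.0 CPM). Chka was high in CDAHFD-fed WT male replicate 3 (45.9 CPM against 33.0 to 34.0 CPM), and Odc1 in CDAHFD-fed Cyp2b-null female replicate 3 (46.9 CPM against 39.4 to 40.5 CPM).

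The diet effect in Cyp2b-null mice was more negative in males than in females for Chpt1 (log2 difference -1.26, edgeR adjusted p = 0.000768) and Aldh7a1 (log2 difference -0.75, edgeR adjusted p = 0.0185). In WT mice the same difference was -0.20 ± 0.22 for Chpt1 (adjusted p = 0.851) and -0.29 ± 0.18 for Aldh7a1 (adjusted p = 0.666); whether the sex difference itself differs by genotype was not tested.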

How the results depend on the processing

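Scaling by library size alone moved the most results: members called higher became 9, 9, 10 and 8 and members called lower 9, 6, 11 and 13 in WT females, Cyp2b-null females, WT males and Cyp2b-null males, with the median of all genes at 0.32, 0.28, 0.37 and 0.36, and the sign turned for Aldh7a1 in Cyp2b-null females (0.10), Ahcyl1 (0.042), Bhmt2 (0.0025) and Cept1 (0.0014) in WT males, and Mat1a (0.043) and Chdh (0.026) in Cyp2b-null males. It also gave 1 lower member in the male interaction, and 5 and 1 lower in males than females on ND and CDAHFD. With the heat map libraries 5 members rose in WT females. DESeq2 called 2 members for genotype on ND in males and 1 lower in the male interaction, as did 1 fit to both sexes for the latter. With no filter on low counts, 1 member passed in each of these: higher in the female interaction, on ND in males and in the WT sex difference of the diet effect, and lower on ND and on CDAHFD in females, on CDAHFD in males, in the male interaction and in the WT sex difference; on CDAHFD 5 were higher and 2 lower in WT males than females. Over all 27613 genes in that setting, 469 passed for the WT sex difference and 1634 for WT males against females on CDAHFD. On ND, 1 was lower in males with a filter of 1 CPM in 4 libraries and 1 with only the groups compared. The cause was not tested for these.

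Leaving out 1 library at a time gave 3 to 4 higher and 16 to 20 lower members in WT females, 1 to 4 and 14 to 16 in Cyp2b-null females, 4 to 6 and 16 to 20 in WT males, 4 to 5 and 19 to 21 in Cyp2b-null males, and 0 for genotype and interaction. The sex difference of the diet effect had 0 to 2 higher and 2 to 3 lower members in Cyp2b-null mice and 0 to 1 lower in WT mice, and males against females had 2 to 4 higher and 1 to 3 lower on ND and 1 to 4 higher and 0 to 2 lower on CDAHFD. Deviations of same-numbered libraries from their group means had correlations of -0.158 to 0.261 in females and -0.290 to 0.347 in males. They were over 0.1 in 5 and 8 of 24 pairs. Libraries with different numbers were not set beside them, so whether the number marks a batch was not tested. With the replicate number as a block, 4, 3, 5 and 5 members rose and 20, 15, 20 and 21 fell, and 0 passed for genotype or interaction; the calls of Cth in Cyp2b-null females and Sms in Cyp2b-null males were lost, those of Aldh7a1 and Slc44a2 in WT females were gained, and so was at least 1 call in WT males and in Cyp2b-null males among members not followed singly.

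RLE scaling kept all 102 named calls. At 2906411 to 10166959 counts, Mthfd1l, Mthfd2, Sms and Chkb are measured with few counts, and 4 livers a group limit the genotype and interaction tests.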
